A study of Mus musculus with 6 samples.

Results

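H3K9me3, a histone mark of silenced chromatin, was examined at the genes of chemokines, interleukins, tumor necrosis factor (TNF) family members and their receptors in mouse endothelial progenitor cells (EPCs). The members were the autosomal H3K9me3 regions whose annotated gene symbol begins with Ccl, Cxcl, Ccr, Cxcr or Il followed by a digit, or with Tnf, with the Ccr4-Not and Ilf families left out. This gave 198 regions at 90 genes, out of 58511 regions in the series and 57177 on autosomes. They are called cytokine-family regions here.

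The signal came from CUT&Tag, in which an antibody tethers a transposase to chromatin so that DNA near the mark is cut and sequenced. Sca-1+/CD31+ EPCs were sorted with magnetic beads from the bone marrow of C57BL/6J mice that were 8 weeks old, and were grown in EGM-2 medium. M-EPC came from males, F-EPC from females with ovaries, and OVX-EPC from females whose ovaries the supplier had removed at about 35 days of age. Each group held 2 libraries from duplicate vials, no source says that these came from separate animals, and p-values therefore measure the spread between libraries only, which may be technical.

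Chemokines are small secreted proteins that guide white blood cells through G protein-coupled receptors, interleukins carry messages between immune, stromal and endothelial cells, and TNF family ligands act through receptors that feed into NF-kB and cell death pathways. H3K9me3 is laid down by histone methyltransferases of the SUV39 and SETDB1 classes, and is best known for keeping repeats and genes of other lineages silent. In endothelial progenitors these genes matter because secreted chemokines and interleukins shape inflammation and vessel repair after injury. The mark does not measure expression.

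The following 5 regions carry much of what is described, and their central or gene-proximal 300 bases are shown as examples of where the signal lay. The bases are those of the reference genome (NCBI RefSeq GRCm38, the mm10 build), 5′ to 3′. Capitals mark matches to 1 of 3 motifs of cytokine-responsive factors searched on both strands, which were the NF-kB motif, the AP-1 motif TGANTCA and the STAT motif TTCNNNGAA. The Ccl12 and Ccl3 promoter stretches each held 1 STAT-type match, and the other 3 stretches held no match.
Ccl12 promoter, chr11:82101563-82101862, plus strand: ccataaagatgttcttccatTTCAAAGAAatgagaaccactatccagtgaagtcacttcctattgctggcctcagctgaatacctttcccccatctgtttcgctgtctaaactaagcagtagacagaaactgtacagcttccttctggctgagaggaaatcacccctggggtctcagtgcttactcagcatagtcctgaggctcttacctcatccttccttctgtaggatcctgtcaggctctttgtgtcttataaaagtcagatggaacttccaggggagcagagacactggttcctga
Ccl3 promoter, chr11:83649398-83649697, minus strand: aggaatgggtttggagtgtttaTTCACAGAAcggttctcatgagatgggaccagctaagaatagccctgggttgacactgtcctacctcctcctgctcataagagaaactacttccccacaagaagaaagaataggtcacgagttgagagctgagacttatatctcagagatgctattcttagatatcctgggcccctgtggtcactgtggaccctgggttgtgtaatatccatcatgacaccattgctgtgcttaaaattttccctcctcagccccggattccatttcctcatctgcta
Ccr7 upstream, chr11:99173697-99173996, plus strand: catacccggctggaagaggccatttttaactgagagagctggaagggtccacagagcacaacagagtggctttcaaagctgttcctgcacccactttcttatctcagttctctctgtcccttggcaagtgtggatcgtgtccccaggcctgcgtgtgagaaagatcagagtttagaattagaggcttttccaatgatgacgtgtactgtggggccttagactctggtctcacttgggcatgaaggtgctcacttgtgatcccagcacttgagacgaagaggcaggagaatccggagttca
Ccl24 upstream, chr5:135591572-135591871, plus strand: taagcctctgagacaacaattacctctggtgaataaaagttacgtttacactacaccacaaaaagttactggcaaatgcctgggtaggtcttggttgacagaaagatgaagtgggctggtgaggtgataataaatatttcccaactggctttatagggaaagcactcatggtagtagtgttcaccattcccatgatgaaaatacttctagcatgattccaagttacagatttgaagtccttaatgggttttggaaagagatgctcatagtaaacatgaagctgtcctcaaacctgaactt
Il3ra exon, chr14:14350137-14350436, plus strand: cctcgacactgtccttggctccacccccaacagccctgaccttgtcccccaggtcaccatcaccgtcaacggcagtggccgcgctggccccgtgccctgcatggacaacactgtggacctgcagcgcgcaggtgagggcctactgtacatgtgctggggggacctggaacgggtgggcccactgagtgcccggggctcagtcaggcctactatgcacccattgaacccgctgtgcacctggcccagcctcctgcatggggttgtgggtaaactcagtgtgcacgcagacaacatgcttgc

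The 2 promoters are shown because Ccl12 differed between F-EPC and M-EPC and Ccl3 was examined by the study. The Ccr7 stretch belongs to the other region that differed, the Ccl24 stretch to the strongest region of the chemokine ligands, and the Il3ra stretch to the strongest region of all 198. Over the 197 cytokine-family regions of 400 bp, 13.7% held the STAT motif compared with 9.97% of all autosomal regions of that length. Among chemokine ligand regions 7 of 24 held it (29.2%). The AP-1 motif was in 13.7% of cytokine-family regions and 12.1% of all, and the NF-kB motif in 6.09% and 8.47%. These matches describe letters only, and the shares were not tested.

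Base composition was close to that of the other regions, with a median GC content of 48.75% and 48.5% in all autosomal regions. Repeats made up most of the sequence in 23.9% of cytokine-family regions and 29.1% of all. Il7r and Il3ra marked the extremes among genes described here. Of the 12 regions of Il7r, 58.3% were mostly repeats, with a median GC of 42.25%, whereas the 3 Il3ra regions had a median of 0% repeats and 63.5% GC.

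Receptor genes held more of the regions than ligand genes. Interleukin receptors had 63 regions at 21 of 36 annotated protein-coding genes, TNF receptors 31 regions at 13 of 20, and chemokine receptors 26 regions at 11 of 16. Interleukins had 34 regions at 17 of 41 genes, chemokine ligands 25 regions at 16 of 35, TNF ligands 10 regions at 8 of 13, and TNF-induced proteins, a group of intracellular regulators such as the NF-kB inhibitor Tnfaip3, 9 regions at 4 of 8. Altogether 90 of 169 autosomal genes had a region. By position 53.0% of the cytokine-family regions were distal intergenic, 18.2% in introns and 21.7% in promoters (within 3 kb of a start site), compared with 54.2%, 21.4% and 20.6% of all autosomal regions.

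**Figure D1:**
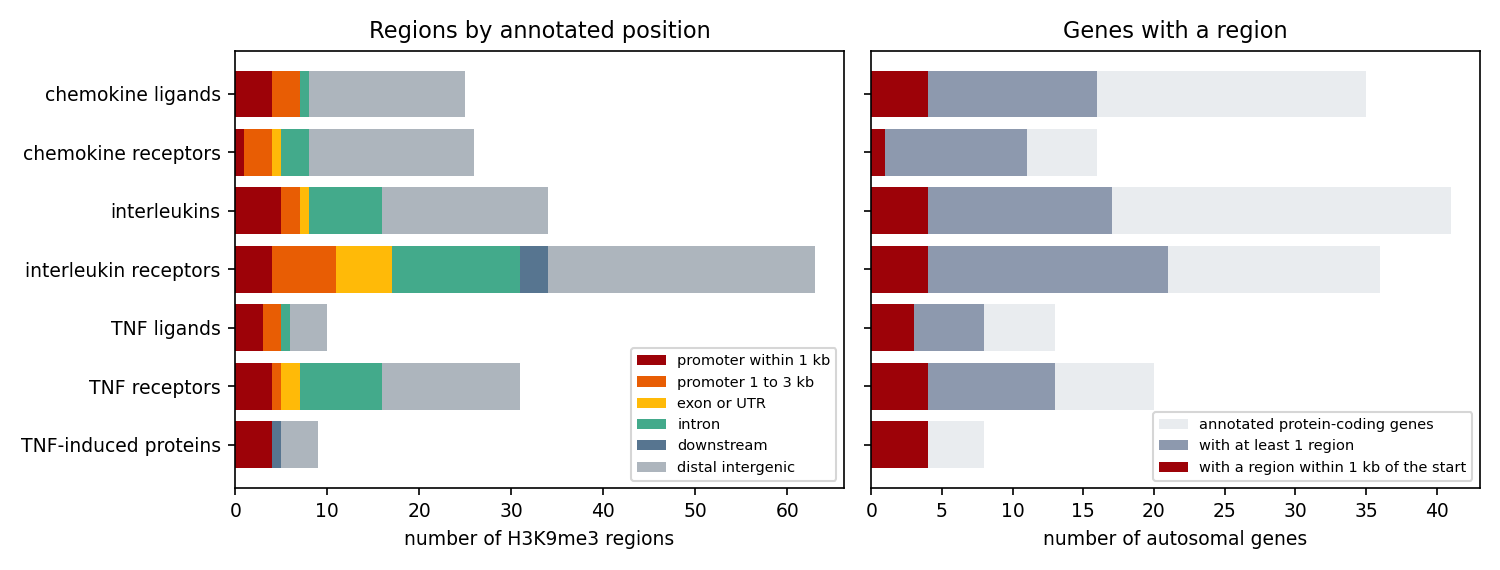
Left, number of H3K9me3 regions of each role, split by the authors' annotation of position. Right, number of annotated autosomal protein-coding genes of each role (pale), those with at least 1 region (grey) and those with a region within 1 kb of the start (red). Interleukin receptors hold the most regions (63), and 24 genes in all have a region within 1 kb of the start.

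Several inflammatory genes that the study measured as RNA or protein had no region to test. Ccl8, Cxcl5, Cxcl9 and Il1b, chemokines and a central inflammatory interleukin, had 0 regions each. Cxcl10, an interferon-induced chemokine, had 1 region, which lay 4943 bp upstream in intron 2 of the neighbouring gene Art3. Ccl2 had 2 regions, Ccl5 had 1, Ccl3 had 1 and Tnf had 2, of which those of Ccl3 and Tnf and 1 of Ccl2 were in promoters.

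Most genes had few regions, 40 of them 1 and 8 of them 5 or more. Il7r, the receptor chain for the lymphocyte growth factor interleukin 7, had the most (12 regions). The largest number in the other roles was 7 for Tnfrsf21 (death receptor 6), 6 for Cxcr4 (the receptor for the homing chemokine Cxcl12), 5 for Ccl24 (an eosinophil-attracting chemokine), 5 for Tnfaip3, 4 for Il6 and 2 for Tnfsf14. Of the 198 regions, 9 (4.55%) had a mean signal of at least 30 over M-EPC and OVX-EPC, compared with 2.81% of all autosomal regions. Signal here is the authors' normalised value, a read number divided by 1 factor per library.

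The strongest signal of all lay on Il3ra, the interleukin 3 receptor chain. In exon 6 of 12 (chr14:14350087-14350486) signal was 142 and 125 in M-EPC against 99.2 and 110 in OVX-EPC. The region 623 bp upstream of its start (chr14:14348799-14349198) gave 98.9 and 74.1 in M-EPC against 59.7 and 69.0 in OVX-EPC. Both were higher in every M-EPC library than in either OVX-EPC library, but neither differed by the test across all regions (log2 change -0.35 ± 0.21 (SE), limma adjusted p = 0.41, and -0.41 ± 0.24, limma adjusted p = 0.38).

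Among chemokine receptors a distal region lay 10728 bp upstream of Ccr6, which guides lymphocytes to mucosal tissue. Its signal was 38.7 and 33.4 in M-EPC against 22.3 and 26.5 in OVX-EPC. In the other roles the highest mean signal was 26.6 at Il33 (an alarmin interleukin), 26.5 at Tnfaip2, 23.5 at Tnfrsf17 (the plasma cell receptor BCMA) and 18.8 at Tnfsf15 (an endothelial TNF ligand). Second in their roles were Il6, the acute-phase interleukin, with 22.2, Tnfrsf1a, the main TNF receptor, with 17.2 in an intron of Plekhg6, and Tnfsf4 (OX40 ligand) with 14.6. Most of these regions were distal intergenic and only assigned to the gene. Those of Il33, Tnfrsf17, Tnfsf15 and Il6 lay 25213, 23758, 54773 and 91857 bp upstream of the start. That of Tnfsf4 lay 28946 bp downstream of it.

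The authors' annotation placed 25 regions at 24 genes in the promoter class within 1 kb, with mean signal from 3.52 (Il4i1, an enzyme named for interleukin 4) to 26.5. The distances given here are to the nearest GENCODE start and can differ from that class, which does not hold the Il3ra regions 623 and 665 bp from a start. The highest 3 of the class were at Tnfaip2, Tnfaip8, a regulator of cell survival, and Il6st, the shared gp130 receptor chain. At Tnfaip2 signal was 30.1 and 19.0 in M-EPC against 30.4 and 26.5 in OVX-EPC. At Il6st it was 19.3 and 19.9 in M-EPC against 10.1 and 12.3 in OVX-EPC, with no overlap (log2 change -0.76 ± 0.36, limma adjusted p = 0.29).

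The depth of the libraries limits what can be read from single regions. The reads in all regions ran from 288353 to 573821 per library. F-EPC replicate 1 had no reads after chr16:30557137 in the order of the tables, so F-EPC was compared only over the 26999 regions up to that point, which held 102 cytokine-family regions at 41 genes (chromosomes 1, 10 to 15 and part of 16). F-EPC replicate 2 had no reads after chr3:110808853 in the same order. Ccl24, Il6, Tnf, Cxcl10, Il33 and Ccr1 lie outside the compared regions. Each library had a median of 6 to 9 reads over the 102 regions. Known endothelial and blood cell genes gave no check of cell identity, because the mark does not report expression. Of 13 such genes looked up, Cdh5 had 15 regions, Pecam1 4, Kdr 1 and Tek 1, and the blood cell genes Adgre1, Itgam and Cd68 had 2, 1 and 1. Ly6a, Cd34, Kit, Ptprc and Cd3e had 0.

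To determine whether H3K9me3 at these genes as a group differs with sex or ovariectomy, the share of each library's region reads that fell in cytokine-family regions was compared. Over the regions that both F-EPC libraries covered, the share was 0.539% and 0.525% for M-EPC, 0.448% and 0.458% for F-EPC, with 0.431% and 0.443% in OVX-EPC. Both M-EPC libraries were above the other 4, and 95% Wilson intervals of M-EPC (lowest bound 0.497%) did not reach those of F-EPC (highest bound 0.485%). These intervals cover counting error only.

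Means were 0.532% ± 0.0098 (SD, n = 2) in M-EPC and 0.453% ± 0.0073 in F-EPC, a difference of -0.079 percentage points (two-sided exact permutation p = 0.333, the smallest that 2 libraries against 2 allow). Over all autosomal regions the share was 0.468% and 0.440% in M-EPC against 0.373% and 0.389% in OVX-EPC, a difference of -0.073 points (exact permutation p = 0.333). OVX-EPC was 0.016 points below F-EPC (exact permutation p = 0.333). With 27 such tests over roles and comparisons, no p-value can pass any threshold.

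**Figure D2:**
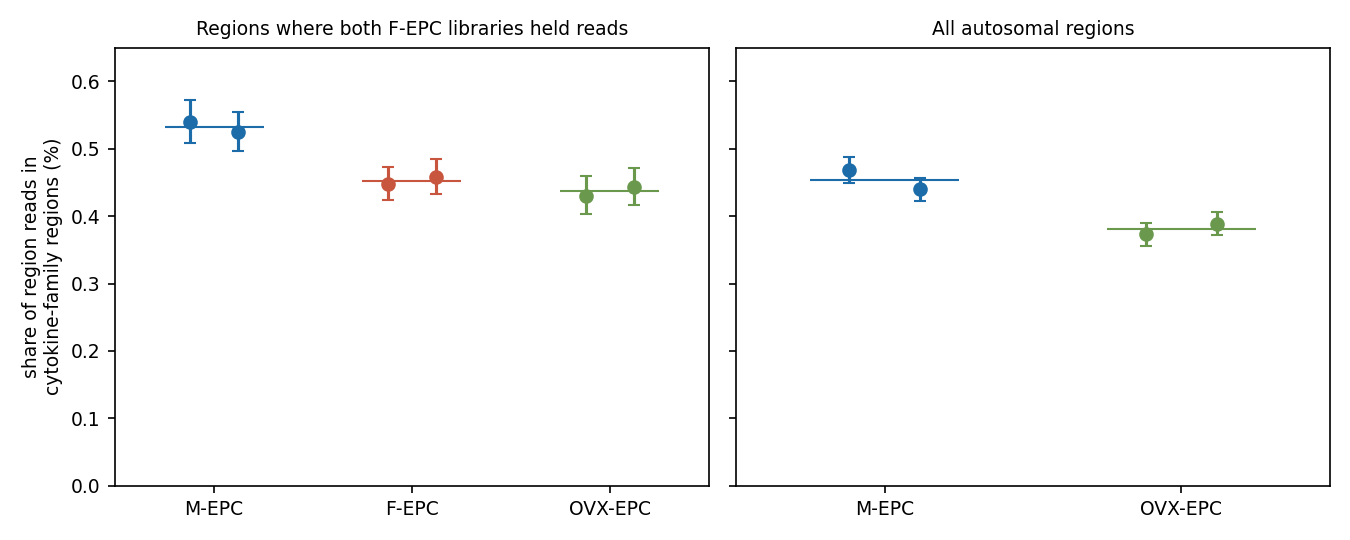
Share of region reads in cytokine-family regions, in percent, for each library (points, with 95% Wilson intervals) and group mean (lines), over the regions both F-EPC libraries covered (left) and over all autosomal regions (right). Each M-EPC library lies above every F-EPC and OVX-EPC library, at 0.525% or more on the left.

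By role, chemokine ligands had the lowest log2 ratio of share in F-EPC against M-EPC, and in OVX-EPC against M-EPC when the Ccl24 regions were counted. Their 12 covered regions took 0.0613% ± 0.0008 of M-EPC reads and 0.0355% ± 0.0003 of F-EPC reads, a log2 ratio of -0.79. Among the 12 were the 2 regions of Ccl12, whose promoter is described below as differing. Summed, the Ccl12 regions had a log2 change of -2.06, so the low F-EPC ratio was partly built in. The ratio without Ccl12 is not given here. In OVX-EPC the 25 ligand regions of all autosomes took 0.0635% ± 0.0034 compared with 0.0875% ± 0.0098 in M-EPC (log2 ratio -0.46). The 5 Ccl24 regions carried much of this. Without them, an alternative chosen after seeing the data, the other 20 ligand regions took 0.0370% and 0.0414% (log2 ratio -0.16), which is closer to 0 than the -0.32 of interleukins and the -0.30 of chemokine receptors, and the difference for the whole family was -0.053 points. In OVX-EPC against F-EPC the 12 covered ligand regions went the other way from the family as a whole, with 0.0514% and 0.0355% (log2 ratio 0.53, exact permutation p = 0.333) and no overlap of libraries. This ratio also includes Ccl12, whose summed regions changed by 0.98. Interleukin receptor regions took 0.271% in F-EPC and 0.301% in M-EPC, without overlap of libraries, whereas TNF-induced proteins overlapped in both comparisons with M-EPC. Promoter regions of the family alone took 0.101% in F-EPC and 0.130% in M-EPC without overlap, but 0.0872% in OVX-EPC and 0.0912% in M-EPC with overlap.

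Counted without a filter on low values, 30 of 102 cytokine-family regions (29.4%) had both F-EPC libraries below both M-EPC libraries, compared with 20.9% of all regions, and 17 (16.7%) had both above, compared with 22.3%. In OVX-EPC against M-EPC 61 of 198 (30.8%) were lower without overlap, compared with 20.5%, and 26 (13.1%) were higher, compared with 20.6%. Between OVX-EPC and F-EPC 20 of 102 were lower (19.6%), compared with 17.1%, and 16 higher (15.7%), compared with 16.0%. Both comparisons with M-EPC use the same M-EPC libraries, so they are not independent.

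The median log2 change tells the size of this shift. In F-EPC against M-EPC it was -0.17 over the 102 cytokine-family regions and 0.05 over all regions. In OVX-EPC against M-EPC it was -0.27 over the 198 regions and -0.003 over all, and in OVX-EPC against F-EPC it was -0.03 and -0.02. Each library's median log2(value + 1) over these regions varied between replicates with an SD, pooled over both groups, of 0.028 to 0.056. This is a spread of levels, not of the median changes. The gap was widest in regions with 20 to 39 reads over the 4 libraries, at -0.31 compared with 0.15 in F-EPC against M-EPC and -0.41 compared with 0.09 in OVX-EPC against M-EPC. With 40 reads or more it was narrower, at -0.34 compared with -0.20 and -0.22 compared with -0.19. Under 20 reads the family median was not lower in F-EPC against M-EPC, at 0.25 compared with 0.20 (27 regions). In OVX-EPC against M-EPC it was -0.03 compared with 0.13 (54 regions). Changes were computed on log2(value + 1), which understates those of weak regions.

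By position, distal intergenic cytokine-family regions had a median of -0.26 in F-EPC against M-EPC (61 regions) and -0.33 in OVX-EPC against M-EPC (105 regions), whereas all distal intergenic regions had 0.21 and 0.15. Promoter regions of the family had -0.35 in F-EPC, near the -0.30 of all promoter regions, and 0.01 in OVX-EPC, where all promoter regions had -0.23. Outside promoters the family median in OVX-EPC was -0.34 (155 regions), compared with 0.08 over all such regions.

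By role the medians of F-EPC against M-EPC ran from -0.70 for chemokine ligands, of which 9 of 12 regions were below 0, through -0.49 for TNF ligands, -0.37 for interleukins, -0.20 for TNF receptors, -0.10 for interleukin receptors and -0.03 for TNF-induced proteins to 0.15 for chemokine receptors. Every role in OVX-EPC against M-EPC had a median below 0, from -0.53 for chemokine ligands to -0.10 for interleukin receptors. Medians of roles with 4 to 14 regions are imprecise.

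**Figure D3:**
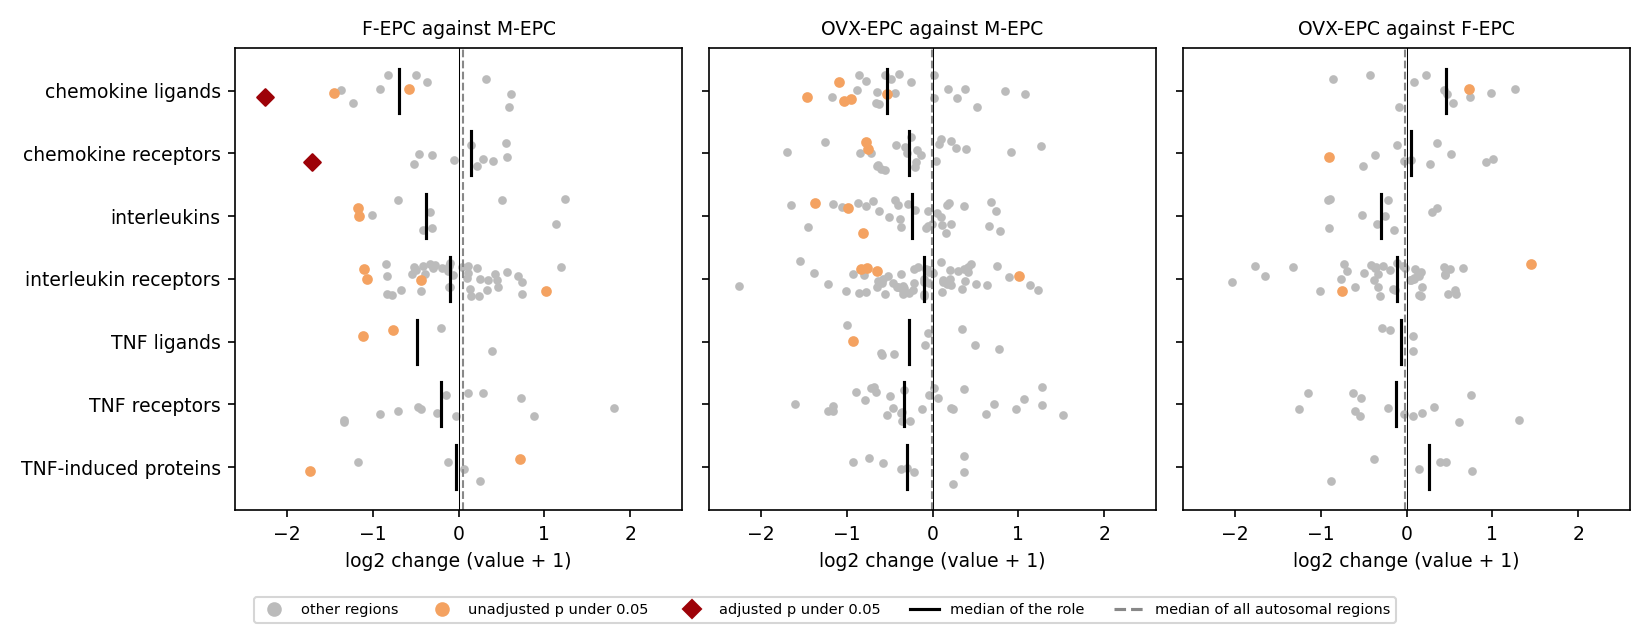
Log2 change of each cytokine-family region by role in the 3 comparisons, on the log2(value + 1) scale (the first group named minus the second). Black bars are medians of a role, the dashed line is the median of all autosomal regions, orange points have an unadjusted limma p under 0.05 and red diamonds an adjusted p under 0.05. The 2 red diamonds are Ccl12 (-2.25) and Ccr7 (-1.71).

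Between F-EPC and M-EPC 2 cytokine-family regions differed, and both were lower in F-EPC. They were among 44 regions of the family with enough signal to test (a value of at least 10 in at least 2 of 4 libraries), compared with 1.79% of all regions tested that differed in either direction and 1.62% that were lower. At an unadjusted p under 0.05 there were 14 (12 lower and 2 higher), which is 31.8% of the 44 compared with 22.8% of all regions tested. Over all regions tested, 132 of the 146 that differed at the adjusted threshold were lower. That split and the 12 lower of 14 in the family are at unlike thresholds and cannot be set against each other. A region tested because M-EPC was high in it was more likely to be lower in F-EPC, so these shares describe the tested regions only. Both regions that differed reached the minimum value through the M-EPC libraries alone.

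The first was the promoter of Ccl12, a ligand of the monocyte receptor Ccr2, at chr11:82101463-82101862. It held 20 and 19 reads for M-EPC, 9 and 2 for F-EPC, with 7 and 6 in OVX-EPC. Signal was 25.0 and 19.3 in M-EPC and 7.18 and 1.84 in F-EPC, or 22.1 ± 4.06 (SD, n = 2) and 4.51 ± 3.77, with no overlap. The log2 change was -2.25 ± 0.49 (SE, limma adjusted p = 0.019).

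The call for Ccl12 was not held by every method. Adjusted p ranged from 0.00099 to 0.93 over the alternatives, being 0.042 with edgeR and 0.93 with DESeq2, and was 0.086 without F-EPC replicate 2. The same region in OVX-EPC against M-EPC had signal of 7.09 and 5.67 compared with 21.5 and 17.2, which did not pass the test (log2 change -1.46 ± 0.41, limma adjusted p = 0.12). There too it reached the minimum value through the M-EPC libraries alone.

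The second was a distal region 18769 bp upstream of Ccr7, the receptor that brings dendritic cells and lymphocytes to lymph nodes, at chr11:99173647-99174046. Its signal was 27.5 and 21.3 in M-EPC and 9.58 and 4.61 in F-EPC, or 24.4 ± 4.40 and 7.09 ± 3.51 (log2 change -1.71 ± 0.40, limma adjusted p = 0.029). Here F-EPC was again lower in both libraries. In OVX-EPC it was 13.2 and 11.4 compared with 23.6 and 19.0 (log2 change -0.75 ± 0.35, limma adjusted p = 0.29).

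As with Ccl12, the Ccr7 result depended on the method. The adjusted p was 0.058 with edgeR, 0.97 with DESeq2 and 0.15 without F-EPC replicate 2, and ranged from 0.0051 to 0.97. With either M-EPC library left out, neither the Ccr7 nor the Ccl12 region reached the minimum value, so neither could be called. The 4 Ccr7 regions together had signal of 41.3 and 30.4 in M-EPC and 18.4 and 21.2 in F-EPC (log2 change -0.84, exact permutation p = 0.333). This sum includes the region that differed, so a lower F-EPC sum was built in. The remaining Ccr7 regions held 3 and 4, 6 and 2, and 2 and 3 reads in M-EPC. In F-EPC they held 1 and 6, 3 and 9, and 7 and 3, with overlap at each. Regions of other genes within 250 kb, 10 in number, changed by -0.34 when summed.

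Ccl12 lies in a row of CC chemokine genes on chromosome 11 with Ccl2, the chief monocyte attractant, Ccl11 (eotaxin) and Ccl1. Their 7 regions were summed. M-EPC had 61 and 72 reads, F-EPC 44 and 34, and OVX-EPC 38 and 43, although F-EPC held the most reads over covered regions. On the normalised scale M-EPC gave 76.3 and 73.0 and F-EPC 35.1 and 31.4, a log2 change of -1.17 (range -1.25 to -1.09 leaving out a library, exact permutation p = 0.333). By gene, Ccl12 changed by -2.06, Ccl2 by -0.99 and Ccl11 by -0.89, whereas Ccl1 changed by 0.84 on 11 and 5 reads in F-EPC compared with 2 and 5 for M-EPC, with overlap. The sum and the Ccl12 change include the promoter region that differed, so lower F-EPC values were partly built in. Without Ccl12, also chosen after seeing the data, the sum changed by -0.66 with no overlap.

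OVX-EPC gave 38.5 and 40.7 over the same 7 regions compared with 65.6 and 65.1 in M-EPC, a log2 change of -0.72 (exact permutation p = 0.333). Neither group overlapped M-EPC. Without Ccl12, whose promoter was called partly through high values in the same M-EPC libraries, the OVX-EPC change was -0.47. The 12 regions of other genes within 250 kb changed by -0.68 in F-EPC and by -0.31 in OVX-EPC, the latter with overlap of libraries.

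The distal region of Ccl12, 4022 bp downstream of its start, had 15.0 and 14.2 in M-EPC and 4.79 and 4.61 in F-EPC (log2 change -1.45 ± 0.48, limma adjusted p = 0.10). It reached the minimum value through the M-EPC libraries alone, so a lower F-EPC value was partly built in. At the Ccl2 promoter signal was 8.75 and 10.1 in M-EPC and 3.19 and 3.69 in F-EPC, too weak to be tested. The distal Ccl2 region overlapped between groups, with 5.002 and 13.2 in M-EPC and 4.79 and 6.45 in F-EPC.

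Ccl3, an inflammatory chemokine whose promoter the study examined, did not separate the groups. Its promoter region (chr11:83649398-83649797), 242 bp upstream of the start, held 15 and 8 reads for M-EPC, 12 and 10 for F-EPC, with 12 and 7 in OVX-EPC. The 2 M-EPC libraries differed more from each other than the group means did. The region was too weak to be tested in F-EPC against M-EPC (log2 change -0.37), and in OVX-EPC against M-EPC the change was -0.25 ± 0.47 (limma adjusted p = 0.83).

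**Figure D4:**
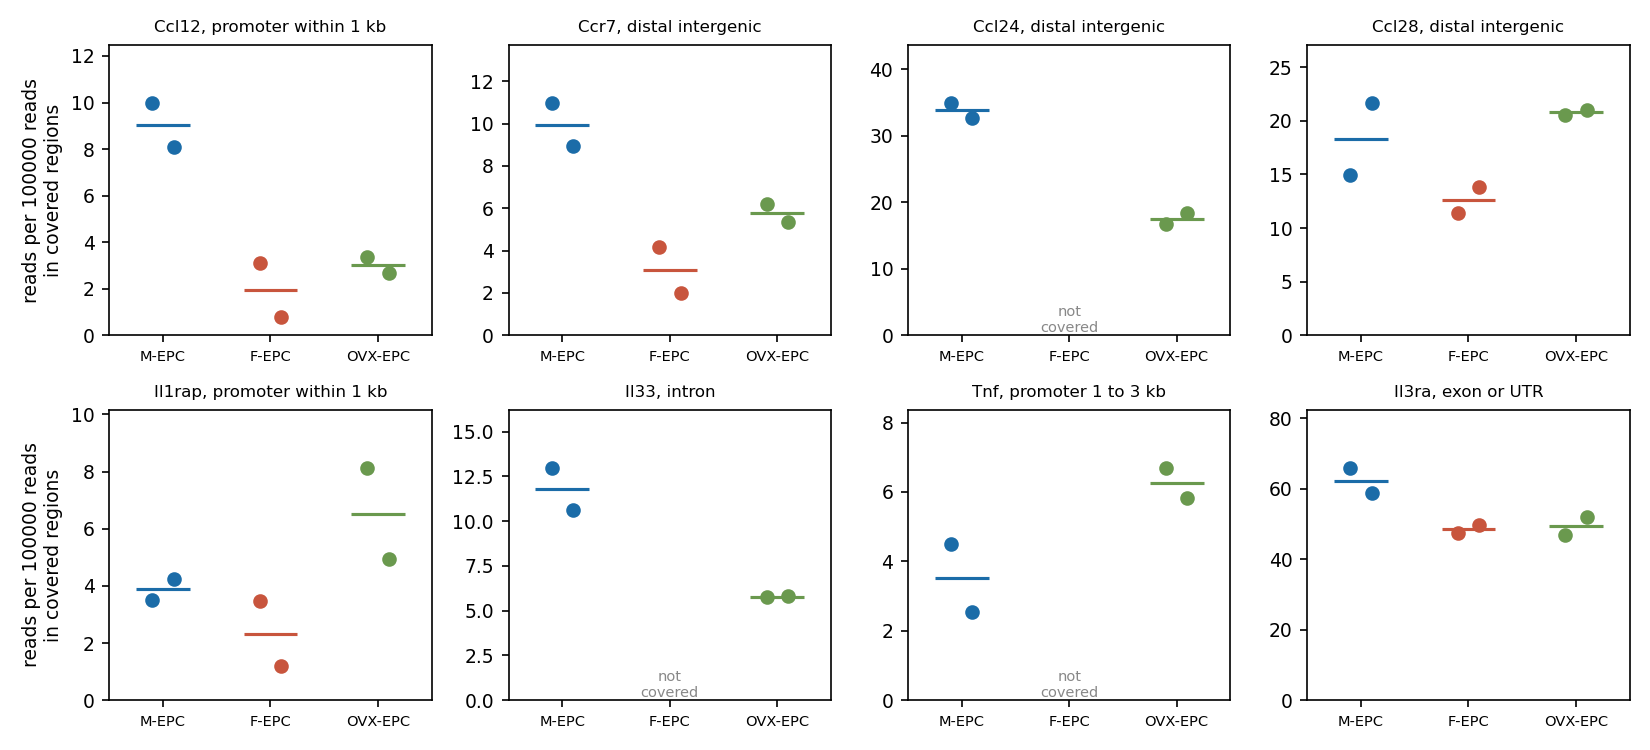
Reads per 100000 reads in the regions both F-EPC libraries covered, for each library (points) and group mean (lines), at 8 regions named by gene and position. Vertical axes start at 0 and differ between panels. At Ccl12 and Ccr7 both M-EPC libraries stand above the others, and at the Il1rap promoter both OVX-EPC libraries stand above the rest.

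Among the other tested regions lower in both F-EPC libraries were Il1r1, the receptor of interleukin 1, and Il4, the type 2 interleukin. Il1r1, 9069 bp upstream, had 22.5 and 20.3 in M-EPC and 8.78 and 10.1 in F-EPC (log2 change -1.10 ± 0.36, limma adjusted p = 0.098). Il4, 4040 bp upstream, had 16.3 and 16.2 in M-EPC and 4.79 and 9.22 in F-EPC (log2 change -1.16 ± 0.42, limma adjusted p = 0.12). Neither passed the threshold, and Il4 reached the minimum value through the M-EPC libraries alone.

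The regions higher in F-EPC were led by Il7r. At chr15:9504510-9504909, just past the end of the gene, signal was 23.9 and 20.3 in F-EPC and 8.75 and 12.2 in M-EPC (log2 change 1.02 ± 0.36, limma adjusted p = 0.12). The other 4 named by the same rule were 2 more regions of Il7r, 1 of Tnfaip3, 46788 bp upstream, and 1 of Cxcr4, 74272 bp upstream, with log2 changes of 0.45 to 0.71 and adjusted p of 0.21 to 0.56. Among them the Il7r region 1359 bp downstream of the start reached the minimum value through the F-EPC libraries alone. At Tnfaip3 signal was 21.6 and 22.1 in F-EPC and 13.8 and 12.2 in M-EPC.

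The 12 Il7r regions together held 217 and 169 reads in F-EPC, compared with 99 and 149 for M-EPC and 99 and 124 for OVX-EPC. On the normalised scale F-EPC gave 173 and 156 compared with 124 and 151 in M-EPC, a log2 change of 0.26 (exact permutation p = 0.333). OVX-EPC gave 113 and 134 compared with 177 and 158 in F-EPC, a change of -0.45 (exact permutation p = 0.333). F-EPC did not overlap either group. Both comparisons use the same F-EPC libraries, and the sum includes the regions named as higher in F-EPC, so they are not independent results. Regions of other genes within 250 kb overlapped in all 3 comparisons.

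Comparing OVX-EPC with M-EPC, 0 of 82 cytokine-family regions tested with limma differed, compared with 0.449% of all regions tested. With edgeR and DESeq2 the count was also 0, and 15 of the 82 (18.3%) had an unadjusted p under 0.05, compared with 16.1% of all. Lower in OVX-EPC were 14 of the 15. Over all regions tested, 68 of the 76 that differed at an adjusted p under 0.05 were lower too. A lean to lower values was thus seen over all regions as well, but at another threshold. How the family's split compares with that of all regions at an unadjusted p is not given here.

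Ccl24 led these. Its 5 regions lay 6504 to 21893 bp upstream, and all 5 were higher in both M-EPC libraries. The strongest (chr5:135591522-135591921) held 70 and 77 reads in M-EPC against 35 and 41 in OVX-EPC, with signal of 75.2 and 69.6 compared with 35.4 and 38.8 (log2 change -0.95 ± 0.25, limma adjusted p = 0.083).

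The other Ccl24 regions changed by -0.53 to -1.09 with adjusted p of 0.14 to 0.35. When regions were required to reach a value of 30 in at least 2 libraries, 2 Ccl24 regions passed the threshold, among 11 of the family tested. The share of all regions that passed with that filter is not given here, so this count cannot be placed against it. Summed, the 5 regions gave 273 and 209 in M-EPC against 121 and 144 in OVX-EPC, a log2 change of -0.85 (range -1.05 to -0.66 leaving out a library, exact permutation p = 0.333). The 25 regions of other genes within 250 kb changed by -0.47 and did not overlap either. F-EPC replicate 1 held no reads there.

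**Figure D5:**
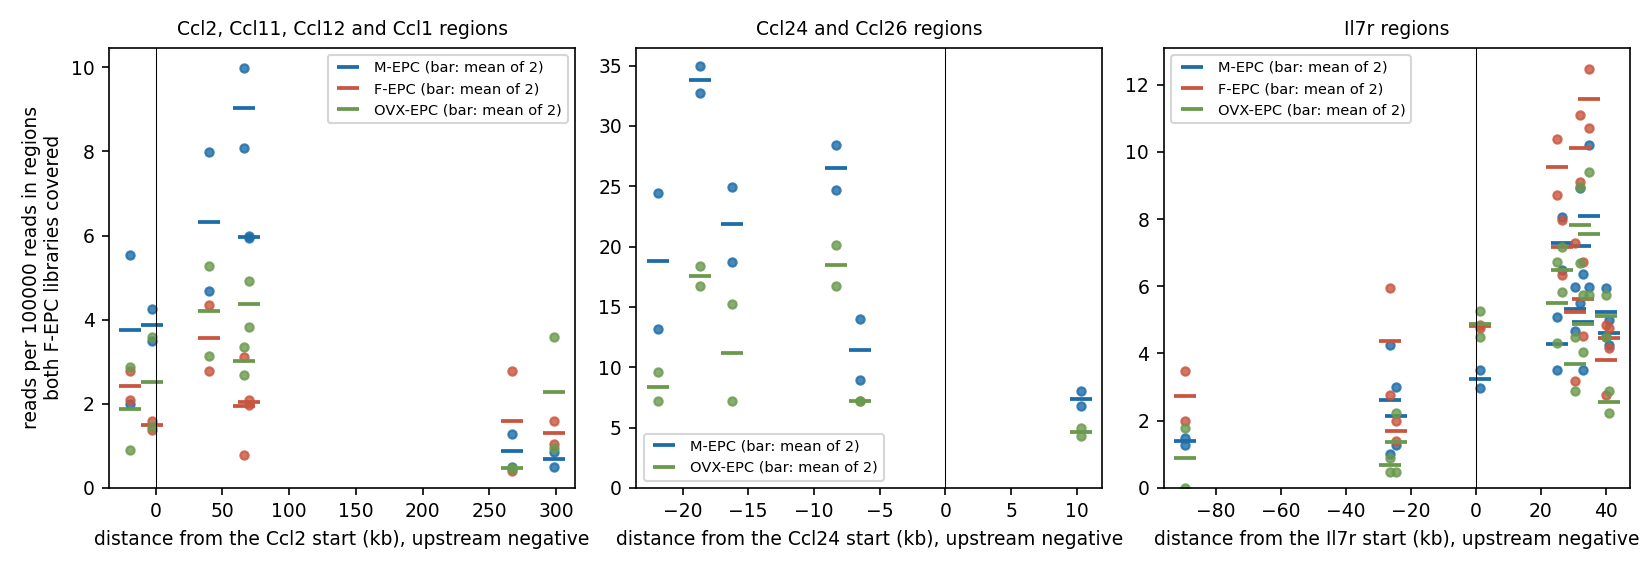
Reads per 100000 reads in covered regions at 3 loci, by distance from the start of the named gene in kb, upstream negative; points are libraries and bars group means. M-EPC stands above OVX-EPC at each of the 5 Ccl24 regions, and at Il7r both F-EPC libraries stand above the others at 25057 bp and 34677 bp downstream of the start.

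After Ccl24 and Ccl12 the region most clearly lower in OVX-EPC was an intron of Il33. It had 27.9 and 22.6 in M-EPC against 12.2 and 12.3 in OVX-EPC (log2 change -0.98 ± 0.34, limma adjusted p = 0.18). The 4 regions of Ccr1, a receptor of inflammatory chemokines, together gave 82.7 and 58.7 in M-EPC against 52.6 and 47.3 in OVX-EPC (log2 change -0.48, exact permutation p = 0.333).

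The group of Il24, Il20, Il19 and Il10 on chromosome 1, interleukins of the interleukin 10 family, had 6 regions. They gave 19.2 and 18.0 in OVX-EPC against 31.2 and 29.8 in M-EPC, a log2 change of -0.71. In F-EPC against M-EPC the same regions overlapped (43.1 and 25.8 compared with 36.3 and 33.5). Tnfrsf19, the TNF receptor also called TROY, had 5 regions that were lower in F-EPC (-0.66) and in OVX-EPC (-0.55), without overlap with M-EPC in either.

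The tested regions of smallest p that were higher in both OVX-EPC libraries came from receptors and ligands. The region 23161 bp downstream of the start of Il10rb, a chain of the interleukin 10 receptor, had 18.2 and 12.3 in OVX-EPC against 4.30 and 10.8 in M-EPC (log2 change 1.01 ± 0.46, limma adjusted p = 0.28). Others were Ccl25, a gut and thymus chemokine (0.84), an intron of Tnfrsf21 (0.72) and the promoter of Il1rap, the coreceptor of the interleukin 1 family (0.64). The Ccl25, Tnfrsf21 and Il1rap regions reached the minimum value through the OVX-EPC libraries alone. The 7 regions of Tnfrsf21 summed to 55.7 and 53.0 in OVX-EPC against 44.1 and 46.1 in M-EPC (log2 change 0.27).

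Tnf, the founding inflammatory ligand, had higher values in both OVX-EPC libraries. Its region 1505 bp downstream of the start had 14.2 and 12.3 in OVX-EPC against 9.67 and 5.42 in M-EPC, and the one 227 bp downstream had 12.2 and 13.2 compared with 11.8 and 8.13. The changes were 0.78 ± 0.45 (limma adjusted p = 0.38) and 0.34 ± 0.41 (limma adjusted p = 0.71). The first of these Tnf regions reached the minimum value through the OVX-EPC libraries alone. Cxcl10 was listed at 2.03 and 5.67 in OVX-EPC against 12.9 and 6.33 in M-EPC, and Ccl5 at 11.1 and 7.57 compared with 8.60 and 5.42, both too weak to test. Against M-EPC (10 and 6.08) Ccl5 had 4.79 and 2.77 in F-EPC. Against F-EPC (4.88 and 2.80) it had 12.5 and 8.61 in OVX-EPC. Libraries did not overlap in either comparison with F-EPC, but Ccl5 was too weak to test there too.

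In OVX-EPC against F-EPC 0 of 33 cytokine-family regions tested with limma differed, compared with 0.0127% of all regions tested. The count was 0 with edgeR and DESeq2 as well, and 4 of 33 (12.1%) had an unadjusted p under 0.05, compared with 6.22% of all. Ccl28, a mucosal chemokine, had 48.9 and 50.6 in OVX-EPC and 26.8 and 32.7 in F-EPC at a region 6971 bp upstream (log2 change 0.73 ± 0.26, limma adjusted p = 0.77).

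The Il1rap promoter had 19.3 and 11.8 in OVX-EPC and 8.13 and 2.80 in F-EPC (log2 change 1.46 ± 0.56, limma adjusted p = 0.77). The other 2 were lower in OVX-EPC, the Il7r region at the gene's end (-0.75) and the Cxcr4 region 74272 bp upstream (-0.90). Both were named above as higher in the same F-EPC libraries than in M-EPC, so the comparisons are not independent. Tnfrsf11a, the receptor RANK, and Il1r1 were higher in both OVX-EPC libraries (0.75 and 0.51, limma adjusted p = 0.84 and 0.85). Il1rap and Tnfrsf11a reached the minimum value through the OVX-EPC libraries alone, and Cxcr4 through the F-EPC libraries alone. Ccr7, which differed between F-EPC and M-EPC, had 14.8 and 12.9 in OVX-EPC and 9.76 and 4.67 in F-EPC (log2 change 0.92 ± 0.48, limma adjusted p = 0.79). It reached the minimum value through the OVX-EPC libraries alone. As it was called partly through low values in the same F-EPC libraries, a higher OVX-EPC value was partly built in.

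Other genes of the same pathways, taken from 4 lists, showed where signalling genes stood beside the cytokines. Of 51 signalling genes (JAK, STAT, SOCS, TRAF, IRAK and NF-kB members), 20 had regions in the covered part and 39 of the 70 regions were tested, of which 4 were lower in F-EPC than in M-EPC (10.3%, compared with 1.62% of all regions tested) and 0 higher. At an unadjusted p under 0.05 there were 17 (43.6%, compared with 22.8%). Traf5, Socs3 and Irak4 reached the minimum value through the M-EPC libraries alone, so these shares describe the tested regions only. The 4 were Socs1 and Socs3, inhibitors of cytokine receptor signalling, Traf5, an adaptor of TNF receptors, and Irak4, a kinase of interleukin 1 receptors.

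The Socs1 promoter had 45.0 and 24.3 in M-EPC and 10.4 and 10.1 in F-EPC (log2 change -1.60 ± 0.35, limma adjusted p = 0.021). The Socs3 promoter had 22.5 and 19.3 compared with 7.18 and 6.45 (-1.48 ± 0.38, limma adjusted p = 0.044). Each was lower in both F-EPC libraries. Of these 4 calls only that of Socs1 passed with edgeR or when values were scaled to total region reads. With DESeq2 0 passed. The count was also 0 with TMM factors from regions of at least 10 reads, an alternative chosen after seeing the data. Without either M-EPC library, Traf5, Socs3 and Irak4 did not reach the minimum value and were not tested. The Socs1 change was -1.17 without M-EPC replicate 1 and -2.03 without M-EPC replicate 2. It was -1.62 and -1.59 without F-EPC replicates 1 and 2. Each such fit rests on 1 library in a group. In OVX-EPC against M-EPC 0 of 45 tested signalling regions passed with limma, with 10 at an unadjusted p under 0.05 (22.2%, compared with 16.1% of all) and Socs1 nearest (-1.40 ± 0.36, limma adjusted p = 0.08).

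None of the other 3 lists had a region that differed in any comparison with limma. Cytokines and receptors with other names had 9 regions tested in F-EPC against M-EPC and 29 in OVX-EPC against M-EPC, of which 2 and 8 had an unadjusted p under 0.05 (22.2% and 27.6%, compared with 22.8% and 16.1% of all). TNF superfamily members with other names had 0 and 4 tested, with 0 and 2 below that value, led by Ltbr, the lymphotoxin receptor (-1.63 ± 0.53, limma adjusted p = 0.17). Chemokine system genes with other names had 1 and 4 tested, 0 below it. The Ltbr region reached the minimum value through the M-EPC libraries alone. In OVX-EPC against F-EPC these 3 lists had 8, 0 and 1 regions tested and signalling genes 28, of which 1, 0, 0 and 3 had an unadjusted p under 0.05, where the share over all regions was 6.22%.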

How the data were processed

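H3K9me3 CUT&Tag was measured in 6 libraries, 2 libraries for every group, with groups taken from the labels. The authors' methods give Bowtie2 alignment, duplicate removal with Picard, peaks called with MACS, HOMER for processing and annotation, and ChIPseeker for differential occupancy, whereas the submitters' processing notes list BWA and MACS2. Both name mm10. Sequencing was in short read pairs, which limits what can be placed in repeats.

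The deposited files are 3 tables, 1 per pair of groups, holding the authors' normalised signal per region and library. Multiplied by a factor for its library, every deposited signal gave whole reads (100% within 0.001). The factor differs between tables, so levels were compared within a table. The authors' fold changes and p-values were not used. Columns left unmapped numbered 0.

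limma 3.58.1 (R 4.3.3) with a mean-variance trend was fitted on log2(value + 1), without covariates, to the 4 libraries of a table, over all regions with a value of at least 10 in at least 2 libraries, with Benjamini-Hochberg adjustment over all of them and a threshold of 0.05. The tests were tested on simulated data. For limma the simulated regions averaged at least 10 reads and the changes put in were large. Weaker regions with small changes, as in much of the family, were not covered. The count tests on recovered reads, edgeR 4.0.16 and DESeq2 1.42.0, called 124 and 4 regions in F-EPC against M-EPC, 139 and 8 in OVX-EPC against M-EPC, and 1 and 0 in OVX-EPC against F-EPC. Shares and sums were compared by two-sided exact permutation tests. Loci joined family regions up to 500000 bp apart, and leaving out a library shows how far 1 library moves a value. Other scalings, filters, pseudocounts, methods and subsets were tried as alternatives. Gene counts and distances came from GENCODE M21.

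Regions named are those of 9 genes the study measured, all that differed, the 5 of smallest p in each direction without overlap of libraries, the highest 2 of each role and the gene with most regions, and the highest 3 in the authors' promoter class within 1 kb. A region of 1 chemokine receptor gene that this rule names is not reported here. The members, lists and rules were chosen with earlier results of these data known.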

Additional observations from a re-analysis of the deposited data

Results flagged for a closer look

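Reads in 2 sets of cytokine-family regions lay outside every comparison above. Of the 96 cytokine-family regions past the point where the reads of F-EPC replicate 1 ended, 35 came before the end of F-EPC replicate 2, at chr3:110808853, which held 348 reads in 34 of them. In the same 35 regions M-EPC held 302 and 342 reads and OVX-EPC 304 and 316. With 1 F-EPC library there is no replicate check and no test. The other 61 regions came after both ends.

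The X chromosome carries 5 regions named by the same gene symbols, at Il13ra2 (an interleukin 13 decoy receptor), Il1rapl1 and Il1rapl2, which were kept apart from the autosomal regions. They held 79 reads in OVX-EPC (43 and 36) and 20 in M-EPC (9 and 11), a ratio of 3.95. All 1309 X-linked regions together had a ratio of 1.96, with 1.20% and 1.20% of region reads in M-EPC against 2.40% and 2.43% in OVX-EPC. The X chromosome came after the end of the reads of both F-EPC libraries, so F-EPC gave no value there.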

How the results depend on the processing

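In F-EPC against M-EPC, 2 cytokine-family regions differed, and 0 did with a minimum value of 30 (7 tested), 0 with DESeq2, 1 with edgeR (Ccl12) and 0 with TMM factors from regions of at least 10 reads, an alternative chosen after seeing the data. Leaving out a library gave 0 to 2, being 0 without M-EPC replicate 1, M-EPC replicate 2 or F-EPC replicate 2; without an M-EPC library neither region reached the minimum value. The median change of -0.17 became -0.10 scaled to total region reads, -0.060 with the added factors, -0.41 at a minimum of 30 (-0.40 over all regions), -0.12 with a pseudocount of 5, -0.35 in promoters alone and -0.30 to -0.11 leaving out a library. In OVX-EPC against M-EPC 0 regions differed, and 2 at a minimum of 30, where the share over all regions is not given here. The median of -0.27 became -0.13 with the added factors, -0.41 at a minimum of 30 (-0.27 over all regions), -0.33 and -0.18 with pseudocounts of 0.1 and 5, -0.29 to -0.20 leaving out a library, and 0.012 in promoters alone. The share difference of -0.073 points became 0.021 when promoter reads alone were counted, as a share of the reads in all promoter regions. In OVX-EPC against F-EPC the median of -0.03 became 0.081 in promoters alone and -0.10 to -0.014 leaving out a library, and the share difference of -0.016 became 0.0088 counted in that way. The Ccl3 change in OVX-EPC of -0.25 ran from -0.77 to 0.15 leaving out a library, the latter without OVX-EPC replicate 2. Other than in the promoter subset, the cause of these moves was not tested.

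The added factors moved the median of all regions from 0.05 to 0.16 in F-EPC against M-EPC and from -0.003 to 0.13 in OVX-EPC against M-EPC. A scaling moves family and other regions about alike, so the family median is best read against that of all regions. Calls over all regions went from 146 to 29, and in OVX-EPC against M-EPC from 8 higher and 68 lower to 10 and 31. Replicate numbers did not pair the libraries (correlations of -0.048, -0.017 and -0.0045). With the replicate block, 2, 0 and 0 cytokine-family regions differed in the 3 comparisons. At a median of 6 to 9 reads per region, most single regions are imprecise. Names of multicopy genes (Ccl21, Ccl27 and Il11ra) were among no members, so leaving them out changed nothing.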
